A study of Mus musculus with 6 samples.

Results

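The 8 genes followed here build or mark the podocyte, the epithelial cell of the glomerular filter, and their levels come from micro-array data from the renal cortex of mice labelled db/m and db/db. They are Nphs1, Magi2, Cd2ap, Podxl, Ptpro, Synpo, Wt1 and Vegfa, chosen for their place in podocyte biology, and every probe that carries 1 of these names was taken, which gave 25 of 56605 probes on the array and 8 of 16460 genes with a tested probe. The arrays are one-colour Agilent arrays, 3 per group and 1 per sample, hybridised with Cy3-labelled cRNA from the renal cortex of male mice aged 16 weeks. The db/db mouse lacks the long form of the leptin receptor through a mutation of Lepr and serves as a model of type 2 diabetes with kidney disease, and the db/m mouse carries 1 mutant and 1 normal copy. The labels name the groups db/m (its samples are also called control) and db/db, with an 8-week treatment with Huangqi decoction (HQD), a herbal formula, stated for the series as a whole. The paper's methods and the design text deposited with the arrays instead describe both groups as db/db mice, HQD-treated and non-treated, and initials in the names of the scanner files could be read with the groups the other way round. The groups are therefore called labelled db/m and labelled db/db, and a positive difference always means a higher level in labelled db/m.

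Podocytes wrap the glomerular capillaries with interdigitating foot processes, and the slit diaphragm that bridges neighbouring foot processes is the last barrier to albumin. Nephrin, the product of Nphs1, spans the slit and is tied to the actin skeleton through adaptors such as Cd2ap, whereas podocalyxin (Podxl) and the receptor phosphatase Ptpro lie on the apical surface, synaptopodin (Synpo) binds actin in the foot process and Wt1 is the transcription factor that maintains podocyte identity. Loss of podocytes and effacement of their foot processes are hallmarks of diabetic kidney disease. In a bulk sample of cortex, fewer podocytes and less RNA per podocyte cannot be told apart.

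Some of the probe sequences are given because results below rest on them, with their places on the mm9 build. The Nphs1 probe matches 60 bases that lie within chr7:31266833-31267052, a stretch of 220 bases on the plus strand, so that it bridges a gap in the genomic sequence. The Cd2ap probe (chr17:42962800-42962859, minus strand) is 1 of 3 tested for that gene. The Vegfa probe (chr17:46159226-46159282, minus strand) has 60 bases, whereas the interval given for it spans 57, so that the interval does not hold the whole probe. It is listed in the files under transcript variants that leave out one under which other Vegfa probes are listed.
Nphs1 A_51_P496741: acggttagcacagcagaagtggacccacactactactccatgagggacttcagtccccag
Cd2ap A_66_P111568: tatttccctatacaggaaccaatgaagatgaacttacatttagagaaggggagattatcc
Vegfa A_55_P2741794: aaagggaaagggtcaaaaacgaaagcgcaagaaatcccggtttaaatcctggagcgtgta

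Since Wt1 is itself a member, the RefSeq promoters (GRCm38.p6, from 250 bases before to 50 after each start) were searched on both strands for GTGGGAG, letters from the core of the WT1 binding element. These letters occurred in 3196 of 32851 promoters (9.73%) and in 2 of the 7 member promoters counted here, which belong to 5 of the member genes. Promoters of the other member genes were not counted. The matching stretches lie in the promoters of Ptpro (chr6:137252239-137252295, gene on the plus strand) and Cd2ap (chr17:42876435-42876491, gene on the minus strand), and capitals mark the match, which reads on the opposite strand in Cd2ap. A match is a description of letters, not of binding.
Ptpro promoter: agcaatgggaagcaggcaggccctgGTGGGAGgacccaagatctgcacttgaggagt
Cd2ap promoter: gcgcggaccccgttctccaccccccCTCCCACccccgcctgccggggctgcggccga

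Levels are given as the log2 intensity of a probe minus the 75th percentile of its array, so that a level of 0 is as bright as that percentile. A probe was tested if 1 of the groups, or both, had it well above background on each of its 3 arrays, and the brightest tested probe stood for each gene. Of the 25 member probes 19 were tested, at least 1 for every gene, and no probe was saturated. Of the 6 others, 5 failed the background criterion on every array (1 for Podxl, 1 for Ptpro and 3 for Magi2) and a further Magi2 probe was above it on 2 arrays. All 12 podocyte markers examined, of which 7 are not members, gave a tested probe. Between 51.6% and 59.0% of all probes were well above background on an array, and the arrays lay on 3 slides, of which 1 held labelled db/m replicate 1 together with labelled db/db replicate 3 and the others 1 group each. The methods of the study name 3 mice per group, the labels do not number the animals, and p-values measure the spread between these arrays.

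No member gene passed a test of the difference between the groups. At a Benjamini-Hochberg adjusted p under 0.05 in limma, 0 of 8 member genes and 0 of 29890 tested probes (0%) passed. At an unadjusted p under 0.05, 0 of 8 members passed, where 15.6% of the 16460 genes and 17.7% of all probes did. All 8 members had a lower mean in labelled db/m, with differences from -0.25 to -0.05 and a median of -0.12 on the log2 scale, beside a median of -0.04 over all genes. This direction was shared by 55.1% of genes and by 76.7% of the brightest 25% of tested probes, whose median was -0.14. How many of the members fall within that 25% was not counted. By probe, 15 of the 19 tested member probes were lower, beside 53.5% of all probes. With labelled db/m replicate 1 left out, 4 of 8 genes were lower (54.9% of genes). The 95% intervals of the 8 differences together ran from -0.78 to 0.61, which corresponds to 0.582 to 1.53 times the level in labelled db/db.

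**Figure D1:**
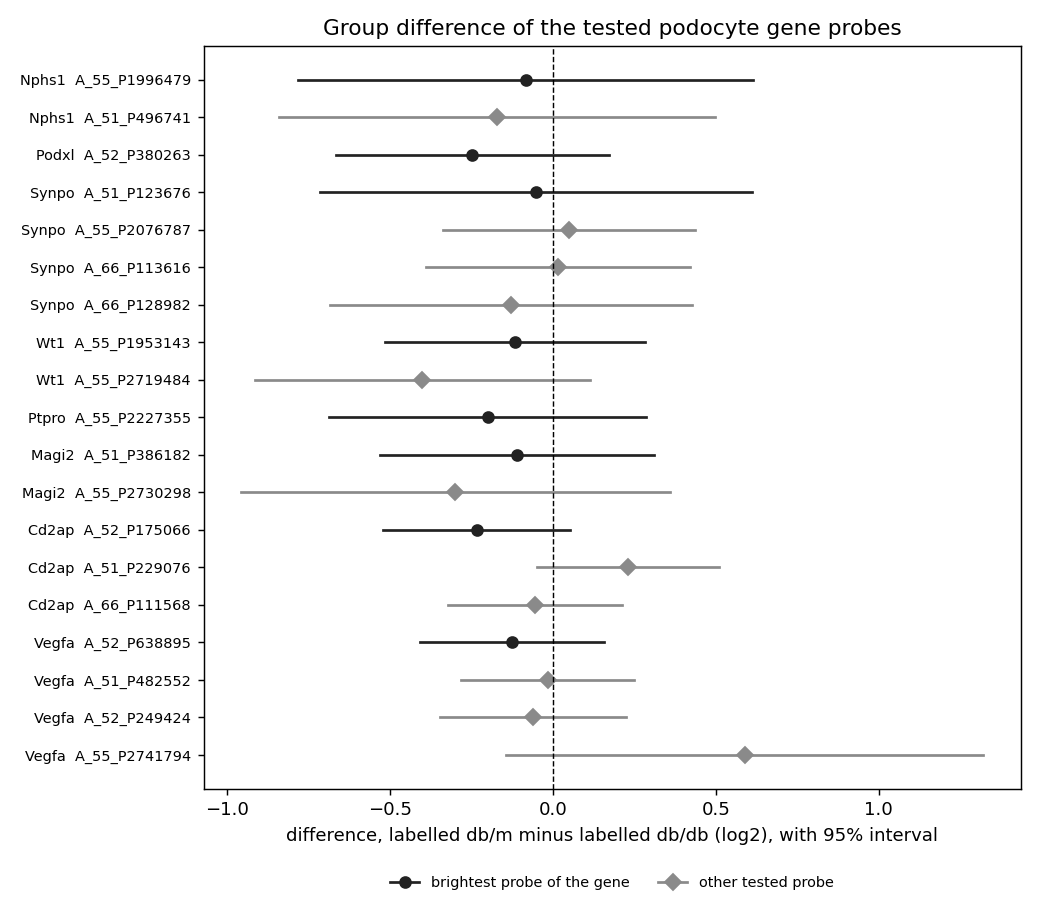
Difference between the groups (labelled db/m minus labelled db/db, log2) for the 19 tested probes of the podocyte genes, with the 95% interval from limma. Dark circles mark the brightest probe of each gene and grey diamonds its other tested probes. All 19 intervals cover 0, with 15 probes below it and 4 above it.

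Among the slit diaphragm genes, Nphs1, the gene of nephrin, had levels of 0.08, 1.23 and 0.59 in labelled db/m replicates 1, 2 and 3 and of 0.51, 0.97 and 0.67 in the arrays labelled db/db (brightest probe, chr7:31273569-31273628, plus strand). The lowest and the highest array were both labelled db/m, and the groups overlapped. The means were 0.63 ± 0.58 and 0.72 ± 0.24 (SD, n = 3), with a difference of -0.08 (SE 0.29, limma adjusted p = 0.887), or 0.944 times. Within labelled db/m the levels covered 1.15 on the log2 scale, far more than the difference between the groups. The sign turned without labelled db/m replicate 1, to 0.19, and without labelled db/db replicate 2, to 0.04. The Nphs1 probe printed above gave levels of -0.72, 0.33 and -0.26 in labelled db/m and of -0.24, 0.27 and -0.16 in labelled db/db, with the same lowest and highest array and a difference of -0.17 (SE 0.28, limma adjusted p = 0.744). The brightest probe exceeded this one by 0.85 ± 0.05 in labelled db/m and 0.76 ± 0.07 in labelled db/db (SD, n = 3; a difference of 0.09, exact two-sided permutation test over arrays, p = 0.2, where 0.1 is the smallest p the design allows).

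Magi2, a scaffold protein that binds nephrin from inside the foot process, had levels of 0.62, 1.17 and 0.73 in labelled db/m and of 0.83, 1.14 and 0.87 in labelled db/db (chr5:20208674-20208733, plus strand). Again labelled db/m held both the lowest and the highest array. The difference was -0.11 (SE 0.18, limma adjusted p = 0.739), which came to 0.00 on leaving out labelled db/m replicate 1. A much dimmer Magi2 probe gave a difference of -0.30 (SE 0.28, limma adjusted p = 0.556).

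Cd2ap, the adaptor that joins nephrin to actin and that is made in many cell types besides podocytes, had levels of 3.61, 3.61 and 3.64 in labelled db/m and of 3.91, 3.99 and 3.66 in labelled db/db (brightest probe, chr17:42930324-42930383, minus strand). Every array labelled db/m lay below every array labelled db/db, although labelled db/db replicate 3 exceeded the nearest of them by little. Cd2ap was the only 1 of the 8 genes whose groups did not overlap, where 22.9% of genes did not (1 of 19 probes, beside 24.1% of all probes). With labelled db/m replicate 2 left out, 5 of 8 genes (Podxl, Wt1, Cd2ap, Ptpro and Magi2) did not overlap, where 47.3% of genes did not, and with labelled db/db replicate 3 left out it was 2 of 8, where 43.3% did not. The difference was -0.23 (SE 0.12, limma unadjusted p = 0.0946, adjusted p = 0.336), or 0.850 times. Within the slide that held both groups it was -0.05, after quantile normalization -0.11, with the groups overlapping, and without labelled db/db replicate 3 it was -0.33 with an unadjusted limma p of 0.0229, where 21.7% of genes passed.

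A Cd2ap probe at chr17:42933165-42933224 pointed the other way, with a difference of 0.23 (SE 0.12, limma unadjusted p = 0.0918, adjusted p = 0.334), the lowest p of any member probe in the main fit. This probe had means of 0.95 ± 0.12 in labelled db/m and 0.72 ± 0.11 in labelled db/db (SD, n = 3), and its groups overlapped. After quantile normalization its difference was 0.27 (limma unadjusted p = 0.0424, adjusted p = 0.304), where 4691 of 29890 probes had an unadjusted p under 0.05. With the deposited matrix it was 0.26 (limma unadjusted p = 0.0442, adjusted p = 0.308), where 4676 did. After median centring it was 0.04. The third probe, printed above, gave -0.06 (SE 0.11, limma adjusted p = 0.797). The signal of the brightest probe over that at 42933165 differed by -0.47 on the log2 scale between the groups, with no overlap (exact two-sided permutation test over arrays, p = 0.1, the smallest p this design allows). That pair was chosen after the values were seen. The mean of the 3 Cd2ap probes differed by -0.02, so that the direction for Cd2ap depended on the probe.

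On the apical surface, Podxl, whose negatively charged product keeps foot processes apart, had levels of 0.42, 0.85 and 0.51 in labelled db/m and of 0.59, 1.09 and 0.85 in labelled db/db (chr6:31470405-31470464, minus strand). Labelled db/db replicate 2 was the highest array and labelled db/m replicate 1 the lowest, with the groups overlapping in between. The difference, -0.25 (SE 0.18, limma adjusted p = 0.454), was the largest of the 8 genes and corresponds to 0.843 times.

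Ptpro, the receptor tyrosine phosphatase once named for the glomerular epithelium, had levels of 0.63, 1.35 and 0.84 in labelled db/m and of 0.99, 1.32 and 1.10 in labelled db/db (chr6:137411402-137411461, plus strand). Labelled db/m again spanned labelled db/db on both sides. The difference was -0.20 (SE 0.20, limma adjusted p = 0.596). On leaving out labelled db/m replicate 2 it was -0.41, with an unadjusted limma p of 0.0377, where 23.7% of genes passed.

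Synpo, the actin-bundling protein of the foot process, had levels of 0.69, 1.82 and 1.33 in labelled db/m and of 1.15, 1.47 and 1.38 in labelled db/db. The groups overlapped fully, and the range within labelled db/m was 1.13 against 0.32 in labelled db/db. The difference was -0.05 (SE 0.28, limma adjusted p = 0.928), the smallest of the 8 genes, and the value turned to 0.24 on leaving out labelled db/m replicate 1. A second Synpo probe of similar profile gave -0.13, and both dimmer probes gave 0.05 and 0.02, with signs that turned under several settings.

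Wt1, the zinc finger transcription factor of the podocyte nucleus, had levels of 1.51, 2.07 and 1.71 in labelled db/m and of 1.82, 2.02 and 1.80 in labelled db/db (chr2:105013656-105013715, plus strand). Here too labelled db/m held the lowest and the highest array. The difference was -0.12 (SE 0.17, limma adjusted p = 0.707), or 0.922 times. A dim Wt1 probe at chr2:104974028-104974087 gave means of -2.50 ± 0.26 in labelled db/m and -2.09 ± 0.35 in labelled db/db (SD, n = 3), a difference of -0.40 (SE 0.22, limma unadjusted p = 0.107, adjusted p = 0.350). Its unadjusted limma p was 0.0468 after quantile normalization and 0.0226 after median centring, and its adjusted p there was 0.311 and 0.181. With the deposited matrix its unadjusted limma p was 0.0470 and its adjusted p 0.314. Of 29890 probes, 4691, 6677 and 4676 had an unadjusted p under 0.05 in these 3 settings.

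**Figure D2:**
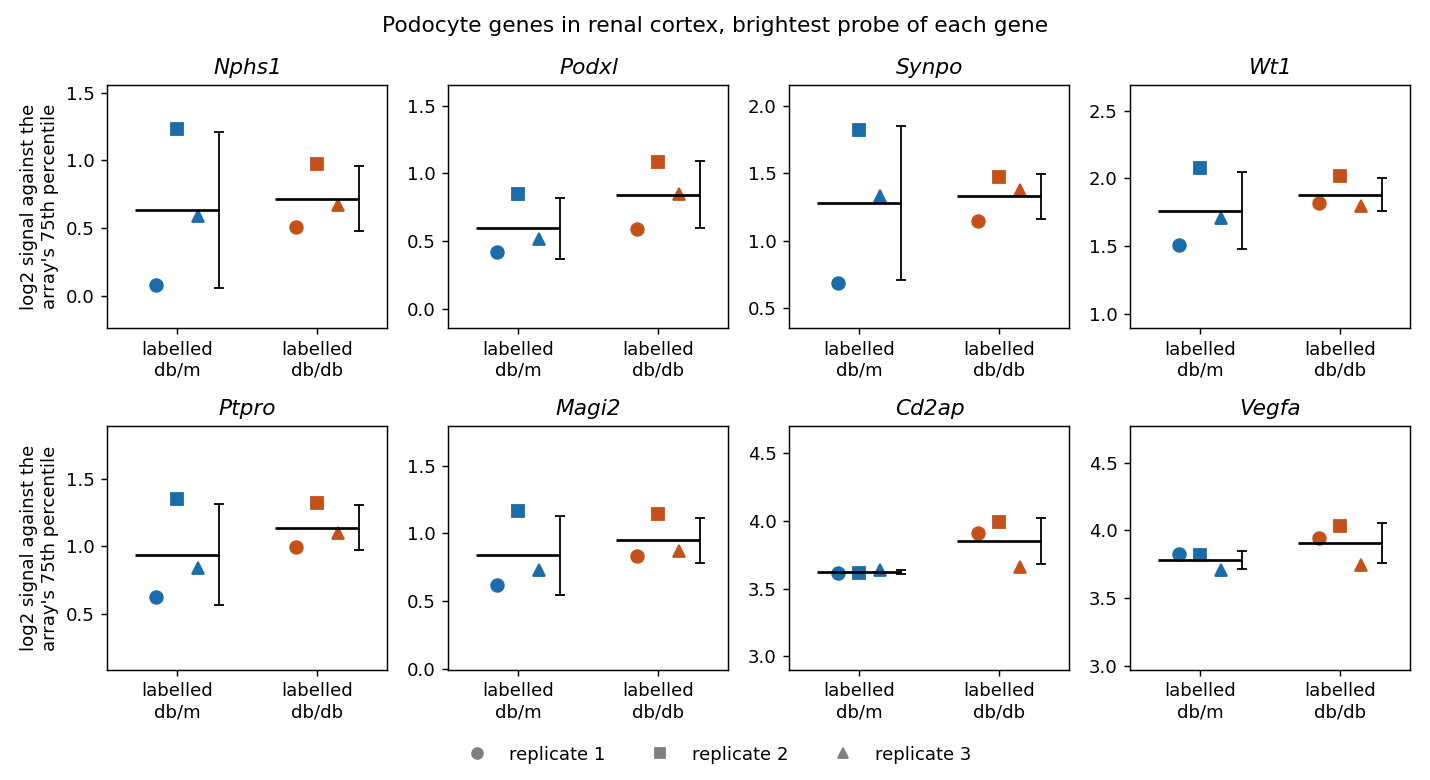
Log2 signal of the brightest probe of each gene against the 75th percentile of its array, in the 3 arrays labelled db/m (blue) and the 3 labelled db/db (orange). Marker shape gives the replicate, horizontal bars the group mean and whiskers 1 SD; every panel spans the same range on the log2 scale. In Nphs1, Synpo, Wt1, Ptpro and Magi2 the arrays labelled db/m lie on both sides of those labelled db/db, and the groups are apart only in Cd2ap.

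Vegfa, which podocytes and tubular cells secrete and which maintains the neighbouring endothelium, had levels of 3.83, 3.81 and 3.71 in labelled db/m and of 3.95, 4.03 and 3.74 in labelled db/db (brightest probe, chr17:46154387-46154446, minus strand). Replicates 1 and 2 labelled db/db were the highest arrays, and replicate 3 lay among those labelled db/m. The difference was -0.13 (SE 0.12, limma adjusted p = 0.566), and it was 0.08 within the slide that held both groups. The probes A_51_P482552 (chr17:46155512-46155571) and A_52_P249424 gave -0.02 (SE 0.11) and -0.06 (SE 0.12).

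The Vegfa probe whose sequence is printed above had another profile over arrays than the other 3 Vegfa probes. Its levels were 0.30, 0.59 and -0.55 in labelled db/m and -0.74, -0.53 and -0.16 in labelled db/db, so that replicates 1 and 2 labelled db/m lay above all arrays labelled db/db and replicate 3 within them. The difference was 0.59 (SE 0.31, limma unadjusted p = 0.0986, adjusted p = 0.341), and without labelled db/m replicate 3 it was 0.92 with an unadjusted limma p of 0.00529 and an adjusted p of 0.622. Set against the mean of the other 3 probes on the same array, it was higher in labelled db/m by 0.66 (exact two-sided permutation test over arrays, p = 0.2, where 0.1 is the smallest p possible). This contrast, too, was chosen after the values were seen.

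**Figure D3:**
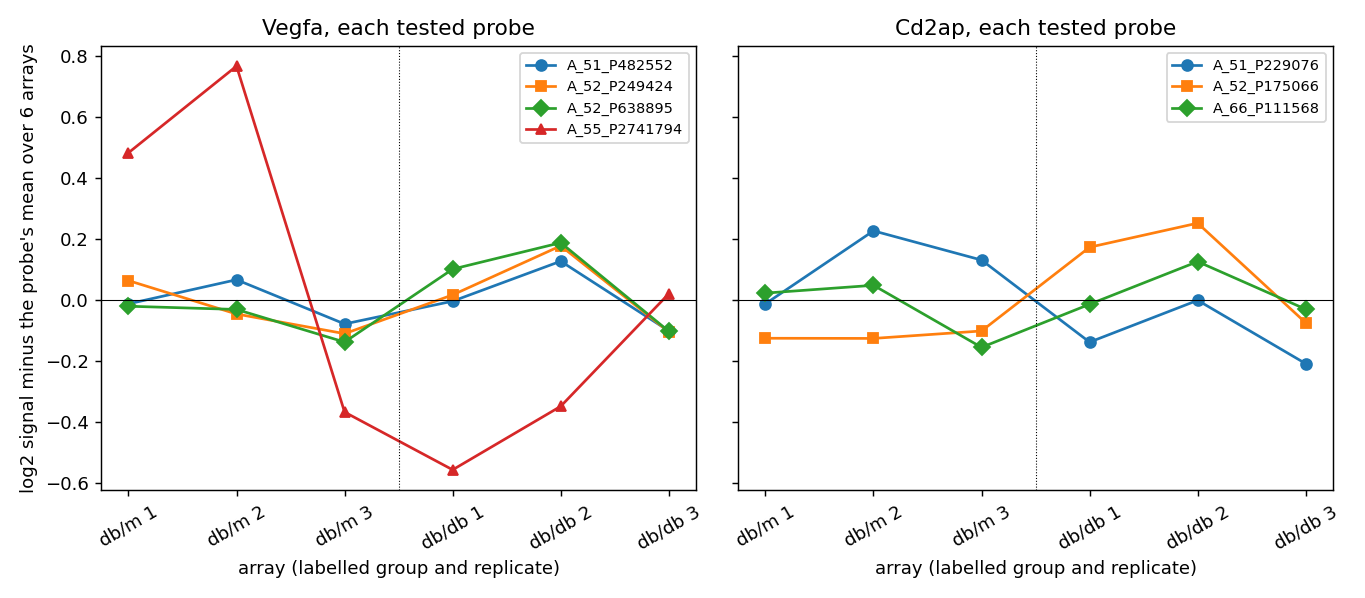
Log2 signal of every tested Vegfa and Cd2ap probe on the 6 arrays, each minus its own mean over the arrays. For Vegfa, A_55_P2741794 lies apart from the other 3 probes, above 0 in labelled db/m replicates 1 and 2. For Cd2ap, A_52_P175066 is lower and A_51_P229076 higher in labelled db/m.

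Several member genes shared a profile over the arrays that did not follow the groups. Labelled db/m replicate 1 was the lowest of the 6 arrays in 6 of 8 genes, and either labelled db/m replicate 2 or labelled db/db replicate 2 was the highest in 8 of 8. The share of all genes with these lowest or highest arrays was not counted, so that these counts have no background beside them. As the mean over the 8 genes, each centred on its own mean, the arrays labelled db/m lay at -0.33, 0.24 and -0.12 and those labelled db/db at -0.04, 0.25 and 0.00 on the log2 scale. The means of the 7 podocyte markers that are not members, a list set apart after values were seen, were -0.43, 0.27 and 0.00 in labelled db/m and -0.09, 0.26 and -0.01 in labelled db/db, with labelled db/m replicate 1 the lowest array in 5 of 7, and 0 of 7 passed an unadjusted p of 0.05, where 15.6% of genes did. The profile was not seen over the wider list of 58 tested podocyte genes described further on, whose means were -0.04, 0.02 and 0.10 in labelled db/m and -0.05, 0.04 and -0.07 in labelled db/db, with labelled db/m replicate 1 the lowest in 18 of 58. That list also holds genes that other cells of the cortex make, such as Mme, and its means are not those of podocytes alone. Labelled db/m replicate 1 was the lowest array in 2 of 10 other slit diaphragm genes and in 0 of 13 genes of the basement membrane and its receptors.

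Markers of other cell types were examined beside this profile. The 10 proximal tubule markers had means of -0.52, 0.26 and -0.16 in labelled db/m and of 0.02, 0.24 and 0.16 in labelled db/db, with labelled db/m replicate 1 the lowest array in 9 of 10, close to the profile of the podocyte genes. The 10 markers of thick limb, distal tubule and collecting duct ran the other way in labelled db/m, with means of 0.27, -0.24 and -0.03, against 0.10, -0.07 and -0.04 in labelled db/db. The means of glomerular endothelial markers were 0.06, -0.14 and 0.21 in labelled db/m and -0.13, 0.07 and -0.07 in labelled db/db, with labelled db/m replicate 2 the lowest. Mesangial markers, at -0.23, 0.04 and 0.19 in labelled db/m and 0.02, 0.08 and -0.10 in labelled db/db, were also lowest in labelled db/m replicate 1 but highest in replicate 3. Parietal epithelial markers, 4 of 5 tested, lay at 0.08, -0.19 and 0.17 in labelled db/m and at 0.09, 0.02 and -0.17 in labelled db/db. At an unadjusted limma p under 0.05, 1 of 10 proximal tubule markers passed (Slc22a8, -0.56), and 1 of 10 in the thick limb, distal and duct list (Slc12a3, -0.91). Of 8 mesangial markers, 2 were higher (Serpine2 by 0.50 and Gata3 by 0.39) and 1 lower (Art3 by -0.46). Of the endothelial and parietal markers 0 of 10 and 0 of 4 passed, where 15.6% of all genes did. None passed the adjusted threshold. The unadjusted p under 0.05 was kept by Slc22a8 in 9 and by Gata3 in 7 of 17 alternatives, and by Slc12a3, Serpine2 and Art3 in 16 or 17. The 75th percentile of intensity used for scaling was 1030, 765 and 957 in labelled db/m and 901, 868 and 943 in labelled db/db, highest and lowest on the same pair of arrays where the podocyte genes were lowest and highest within labelled db/m. Before scaling, the intensity of Nphs1 was 1090, 1799 and 1437 in labelled db/m. That of Synpo was 1660, 2698 and 2413, and that of Wt1 was 2930, 3224 and 3123. Ptpro had 1590, 1950.5 and 1715, and Magi2 had 1580, 1721 and 1589. All of these genes kept replicate 1 lowest and replicate 2 highest within labelled db/m. Podxl (1380, 1379 and 1366), Cd2ap (12600, 9358 and 11908) and Vegfa (14600, 10768 and 12510) did not, so that the order before scaling differed between members. The part of tissue composition, scaling or slide in the profile was not tested.

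**Figure D4:**
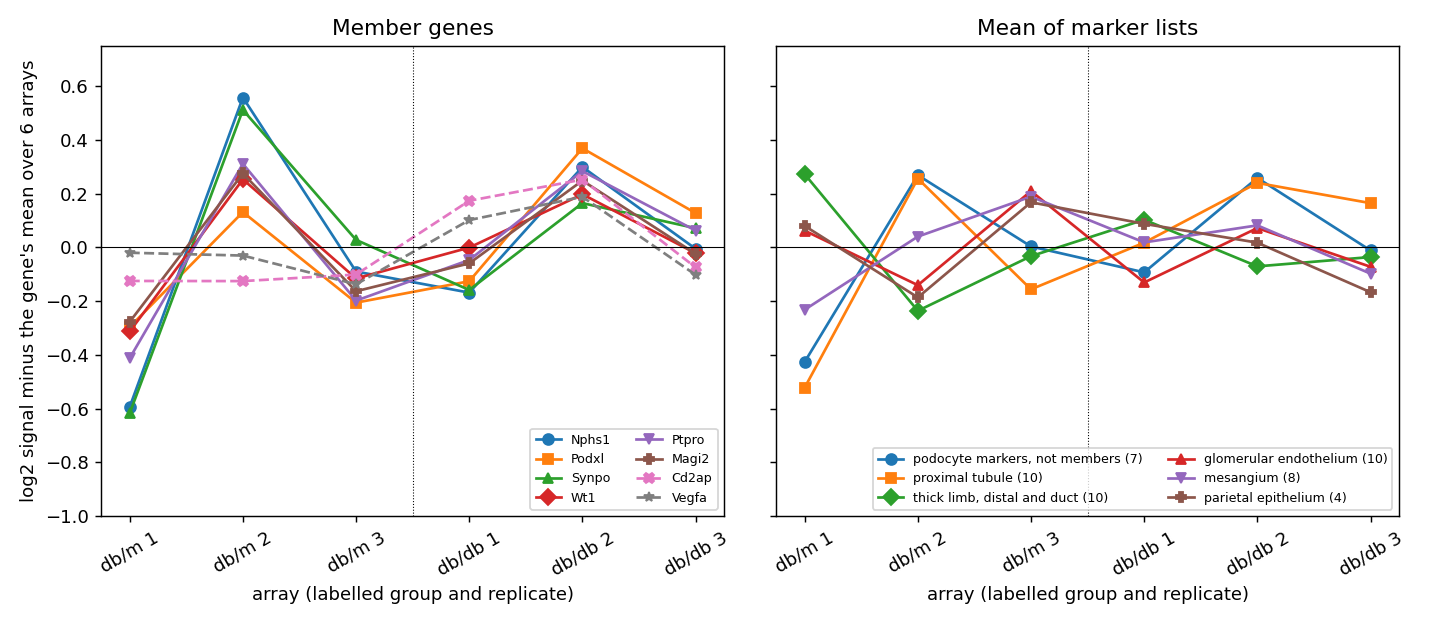
Left, log2 signal of the 8 podocyte genes on the 6 arrays, each minus its own mean, with Cd2ap and Vegfa dashed. Right, the mean of the same quantity over marker lists of kidney cell types, with the number of tested genes in brackets. The means of the 7 podocyte markers and of the proximal tubule markers are lowest in labelled db/m replicate 1, where the mean of markers of thick limb, distal tubule and collecting duct is highest.

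Likeness to Nphs1 was measured as the root mean square distance between centred log2 levels over the 6 arrays, for 16459 genes whose median distance was 0.386. It is a description over 6 arrays that share their scaling. The distance was not scaled for amplitude, so that ranks reflect both the shape and the size of a gene's changes. Synpo lay at rank 7 with a distance of 0.0823, Ptpro at 71, Magi2 at 227, Wt1 at 264 and Podxl at 673, so that 5 of the 7 other members fell within the nearest 4.08% of genes. Vegfa and Cd2ap lay at ranks 6547 and 7136, in the middle of all genes. Both changed little, with centred levels from -0.14 to 0.19 and from -0.13 to 0.25, beside -0.59 to 0.56 for Nphs1. Among the podocyte markers that are not members, Sema3g lay at rank 158, Rhpn1 at 288, Cdkn1c at 399 and Clic5 at 573, whereas Tcf21 lay at 11520. The nearest genes outside the members were Aplp1 (0.0538), Tmem151b (0.0737), Rarres1 (0.0738), Mgmt (0.0742) and Srgap1 (0.0784).

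Other genes of the podocyte, not all of them particular to it, were counted for comparison, from a list of 60 of which 58 had a tested probe. Their median difference was 0.04 on the log2 scale, with 23 lower and 35 higher, against the 8 of 8 lower among the members. None passed an adjusted p of 0.05 in limma, and at an unadjusted p under 0.05 there were 4 higher and 2 lower, where 6.1% and 9.5% of genes were. This count was 16 without labelled db/m replicate 2 (23.7% of genes) and 3 without labelled db/db replicate 2 (7.25% of genes).

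Of the 12 slit diaphragm genes listed beside the members, 10 were tested. Trpc6, a calcium channel of the slit, had levels of -1.11, -1.90 and -1.59 in labelled db/m and of -2.48, -3.07 and -2.01 in labelled db/db, a difference of 0.98 without overlap (SE 0.31, limma unadjusted p = 0.0163, adjusted p = 0.240). Nck2, an adaptor that binds phosphorylated nephrin, had levels of 1.81, 1.89 and 1.73 in labelled db/m and of 2.20, 2.21 and 2.18 in labelled db/db, a difference of -0.39 without overlap (SE 0.10, limma adjusted p = 0.240). Among 16 genes of the foot process cytoskeleton, Ezr, which links podocalyxin to actin, differed by -0.35 (SE 0.12, limma adjusted p = 0.245). Arhgdia and Myh9, with Mme the 3 brightest genes of the list, differed by -0.18 (SE 0.10) and 0.12 (SE 0.11).

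Among 7 other podocyte transcription factors, Foxc1 differed by 0.76 (SE 0.32, limma adjusted p = 0.283), with overlapping groups. The surface proteins Pla2r1 and Mme, of which Mme (neprilysin) is also abundant in the proximal tubule, differed by 0.52 (SE 0.19, limma adjusted p = 0.254) and 0.50 (SE 0.14, limma adjusted p = 0.240). Pla2r1 was dim, with means of -2.63 in labelled db/m and -3.15 in labelled db/db, beside 5.75 and 5.26 for Mme. In the 13 genes of the glomerular basement membrane and its receptors, 11 were higher and 2 lower, where 55.1% of all genes were lower, with a median of 0.13 and 0 at an unadjusted p under 0.05, where 15.6% of all genes were. Of 13 genes of the Vegfa pathway 11 were tested. At an unadjusted p under 0.05, 2 were lower in labelled db/m and 0 higher, where 9.5% and 6.1% of all genes were. The hypoxia-inducible factor Epas1 differed by -0.29 (SE 0.11, limma adjusted p = 0.270). The co-receptor Nrp2 differed by -0.65 (SE 0.26, limma adjusted p = 0.271), with overlapping groups. No gene of any of these lists passed the adjusted threshold.

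The unadjusted calls of these genes depended on the setting to different degrees, over 17 alternatives. Trpc6 kept an unadjusted limma p under 0.05 in 16, with differences from 0.67 to 1.24, and Nck2 in 15, from -0.57 to -0.30. Mme kept it in 14, but differed by 0.15 as the mean of its tested probes, by 0.31 after median centring and by 0.27 with slide as a block, where it did not pass. Ezr passed in 10 (-0.54 to -0.18) and Pla2r1 in 8 (0.19 to 0.62, the lowest with slide as a block, and 0.32 without labelled db/m replicate 3). Epas1 passed in 7, with -0.10 after quantile normalization and with the deposited matrix and -0.13 with slide as a block, and in 1 of the 6 fits that left out an array. Nrp2 passed in 7, with -0.24 as the mean of its tested probes and -0.40 on leaving out labelled db/m replicate 1. Foxc1, whose unadjusted limma p was 0.0499, passed in 6, and it differed by 0.44 on leaving out labelled db/m replicate 1 and by 1.25 with slide as a block.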

How the data were processed

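For every array a scanner file was deposited by the authors, which holds spot intensity as Agilent Feature Extraction 10.7.1.1 gave it (background subtracted, detrended, not scaled between arrays), and a matrix of log2 values whose sorted values are nearly alike in every column (largest gap 0.0285), used here as an alternative. The normalization and test of the authors are not given in the sources used here. The file of labelled db/m replicate 1 holds intensities to 3 significant digits, where the others hold 7, and 71 gene names that differ. Names came from the other files.

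Control spots and 135 probes with an outlier flag were left out of 56605 probes, spots of a probe were averaged, and each array's 75th percentile was subtracted from its log2 values. Groups from the labels were compared with limma 3.58.1 (lmFit, eBayes) in R 4.3.3, with Benjamini-Hochberg adjustment over 29890 probes, and the fit was tested on simulated data. Symbols came from RefSeq by accession for 32994 probes, and otherwise from the files. Coordinates are those of the files (mm9), whose annotation of exons was not used here. The number of arrays limits the precision. The member genes, gene lists and tests were chosen with earlier results of these data known, and the list of podocyte markers that are not members was set apart after values were seen. In the lists, genes with an unadjusted p under 0.05 were named, with the 3 brightest podocyte genes. For likeness to Nphs1, the 5 nearest genes were named. The alternatives were the deposited matrix, centring on the median, normalization by quantiles, a normexp background step (offset 50), 2 other filters, an equal-variance test, trend and robust variances, blocks for slide and replicate number, leaving out each array, and the mean over the probes of a gene. Some genes and a probe sequence that these rules cover are not reported here, and the genes stay in the counts and list means.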

Additional observations from a re-analysis of the deposited data

How the results depend on the processing

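Under 17 alternatives, 0 of 136 pairs of member gene and alternative passed an adjusted p of 0.05, 2 passed an unadjusted p of 0.05 and 9 had the sign turned. Of 312 pairs of member probe and alternative, 0 passed an adjusted p of 0.05, 8 passed an unadjusted p of 0.05 and 34 had the sign turned. No sign could turn under the other filters, the equal-variance test, trend and robust variances or the replicate block, which keep each difference as it is. Counts of member genes moved as follows. Those at an unadjusted p under 0.05 ranged from 0 to 1 when 1 array was left out. The count was 1 without labelled db/m replicate 2 (23.7% of all genes) and without labelled db/db replicate 3 (21.7%). Those whose groups did not overlap ranged from 1 to 5, with 5 without labelled db/m replicate 2, where 47.3% of all genes did not. Those lower in labelled db/m ranged from 4 to 8, with 4 without labelled db/m replicate 1, where 54.9% of all genes were. The median difference of the members ranged from -0.30 to -0.02. That median, -0.12 as reported, was -0.31 after median centring, -0.065 after quantile normalization and -0.063 with the deposited matrix. The number without overlap was 0 after quantile normalization, with the deposited matrix and with the mean of the probes of a gene. The share of all genes without overlap was not counted in these settings. With slide as a block, which leaves 1 array per group, the median of the members was -0.36. Over the other podocyte genes, the median was -0.15 after median centring, which moved the median of all probes from -0.03 to -0.21, and the count at an unadjusted p under 0.05 was 2 with the slide block and 3 with the mean of the probes, and ranged from 3 to 16 with 1 array left out. Over all probes, 1 passed the adjusted threshold after median centring, normexp, the filter on all 6 arrays, or trend and robust variances, and 0 to 123 did with 1 array left out. At an unadjusted p under 0.05 there were 2902 with the slide block, and 2301 to 7249 with 1 array left out.

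Signs that turned were these, as differences on the log2 scale. With the slide block, Vegfa at A_52_P638895 was 0.082, at A_51_P482552 0.089 and at A_52_P249424 0.17, Cd2ap at A_66_P111568 was 0.053, and Synpo at A_55_P2076787 and A_66_P113616 was -0.34 and -0.36. Both of these Synpo probes were -0.035 and -0.053 after quantile normalization, -0.14 and -0.17 after median centring and -0.037 and -0.053 with the deposited matrix, and the second was -0.038 with normexp. Synpo at A_51_P123676 was 0.0011 with the deposited matrix. Vegfa at A_51_P482552 was 0.062 after quantile normalization and 0.060 with the deposited matrix, and Vegfa as the mean of its probes was 0.097. With 1 array left out, Nphs1 ranged from -0.38 to 0.19 (A_55_P1996479) and from -0.45 to 0.081, Synpo from -0.32 to 0.24 (A_51_P123676), from -0.090 to 0.17 (A_55_P2076787), from -0.078 to 0.18 (A_66_P113616) and from -0.34 to 0.095, Wt1 from -0.27 to 0.010, Magi2 from -0.28 to 0.00078, Cd2ap at A_66_P111568 from -0.094 to 0.0082, and Vegfa from -0.070 to 0.044 (A_51_P482552) and from -0.13 to 0.013 (A_52_P249424). The upper ends of Nphs1, Wt1, Magi2 and the Synpo probes A_51_P123676 and A_66_P128982 came without labelled db/m replicate 1. The cause of these changes was not tested.

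The replicate numbers share nothing in the labels beyond the number. The deviations of same-numbered arrays from their group means correlated at 0.354, 0.148 and 0.046. Those of differently numbered arrays correlated at -0.337 to 0.149. As the labels give no pairing, the main fit did not pair the samples, and whether the numbers pair them was not tested. With replicate number as a block every difference stays as it was by design, since every number occurs in both groups. In that fit 0 member genes passed, and Nphs1 kept -0.08 (SE 0.16, beside 0.29 without the block, limma unadjusted p = 0.630). Over all probes, 6559 had an unadjusted limma p under 0.05 with this block, beside 5282 without it.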
